A study of Mus musculus with 2 samples.

Results

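Histamine is made from the amino acid histidine and is sensed through G protein-coupled receptors, and the 5 genes described here cover both steps. They are Hdc, Slc18a2, Hnmt, Hrh1 and Hrh2. Each was taken as the probe set that the platform annotation assigns to that gene symbol alone, and each had 1 such probe set, out of 19938 genes measured in this way. The genes were chosen from values of the same arrays, so what follows describes these values and tests nothing with them. Gene expression was measured on 2 arrays, 1 for each group. On the DSS array was RNA of colonic lamina propria macrophages of mice given 3% (wt/vol) dextran sulfate sodium in the water for 5 days. This polymer damages the colon epithelium and is used to induce colitis. On the control array was RNA of the same sorted population from mice given plain water for 5 days. Cells were freshly sorted by flow cytometry as CD45+, IAb+, CD11b+, F4/80+ and CD103-. The sources used here do not give the strain, age, sex or genotype of the mice, or the number pooled for an array. Without a second array in either group no replicate error is known, and every difference below compares 2 arrays, not the conditions.

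Histidine decarboxylase, encoded by Hdc, forms histamine in 1 step with pyridoxal phosphate as cofactor. Mast cells and basophils are its classical sources and store the amine in granules, which are loaded through the vesicular monoamine transporter encoded by Slc18a2. Myeloid cells of the mouse, among them immature neutrophils, can also express Hdc. Hnmt encodes histamine N-methyltransferase, which inactivates histamine inside cells with S-adenosylmethionine as the methyl donor. The H1 receptor, encoded by Hrh1, acts through Gq proteins and calcium release, and the H2 receptor, encoded by Hrh2, acts through Gs proteins and cyclic AMP.

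Promoter sequences are shown for the gene that was far higher on the DSS array (Hdc) and for the pair that was lower (Hnmt and Hrh1). They come from RefSeq (build GRCm38.p6), matched by symbol, and each holds the 250 bases before a listed transcription start, written 5′ to 3′ on the gene's strand. The window of Hdc is chr2:126618679-126618928 (minus strand), that of Hnmt is chr2:24049380-24049629 (minus strand) and that of the first of 4 starts listed for Hrh1 is chr6:114397686-114397935 (plus strand). Capitals mark the GC box (GGGCGG on either strand).
Hdc: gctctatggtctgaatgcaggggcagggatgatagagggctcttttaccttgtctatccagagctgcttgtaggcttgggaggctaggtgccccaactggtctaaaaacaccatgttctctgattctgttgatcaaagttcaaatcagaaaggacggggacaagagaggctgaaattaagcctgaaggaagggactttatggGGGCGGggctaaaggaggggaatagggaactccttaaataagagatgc
Hnmt: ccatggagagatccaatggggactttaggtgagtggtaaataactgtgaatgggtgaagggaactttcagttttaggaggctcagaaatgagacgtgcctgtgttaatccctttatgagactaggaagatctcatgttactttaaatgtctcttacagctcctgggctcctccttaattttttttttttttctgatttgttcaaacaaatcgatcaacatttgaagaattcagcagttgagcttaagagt
Hrh1: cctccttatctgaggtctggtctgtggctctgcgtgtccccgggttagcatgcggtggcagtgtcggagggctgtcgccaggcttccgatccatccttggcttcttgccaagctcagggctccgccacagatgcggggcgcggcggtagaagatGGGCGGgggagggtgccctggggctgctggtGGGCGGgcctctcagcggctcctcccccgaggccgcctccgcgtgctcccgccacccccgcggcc

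The windows differed in composition. The Hdc window had 48.8% G and C and 2 CpG dinucleotides, and the Hnmt window 38.8% and 2. The Hrh1 window shown had 71.2% and 21. Medians over 32851 promoter windows of this length were 52.4% and 6. The windows of the other Hrh1 starts differed widely, with 78.4%, 49.6% and 51.2% G and C and 32, 3 and 1 CpG dinucleotides. A GC box began 48 bases before the start in Hdc, and at 96 and 65 bases before it in the Hrh1 window shown. This motif was in 6 of the 9 windows listed for the 5 genes, some of which overlap, and in 32.7% of all windows. The cyclic AMP response element TGACGTCA, the C/EBP site TTGCNNCAA, the E-box CACGTG and the TATA box TATAAA were in no window of the 5 genes. They were found on either strand in 1.55%, 1.74%, 6.02% and 12.4% of all windows. The AP-1 site TGANTCA was in the window of 1 other Hrh1 start, and in 6.75% of all windows. These are matches of letters and not measured binding.

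All values are log2 signals as deposited, differences are DSS minus control, and folds are differences taken back to the linear scale. The median signal over 28939 probe sets was 5.62 on the DSS array and 5.70 on the control array, and the arrays correlated with r = 0.975 across probe sets, which are not replicates. A gene was counted when its signal reached the array median on the DSS array, the control array or both. This held for 11163 of all 19938 genes, the others being below both medians. It held for 4 of the 5 histamine genes, Slc18a2 being the exception. The median is a signal rule and not a detection limit. Signals of different probe sets are not on a common scale, so levels are compared between arrays within a gene and not between genes. For scale, the differences of the 11163 genes had a robust SD of 0.39, and probe sets of the same gene differed with a pooled SD of 0.28 over 641 genes.

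Of the 4 counted histamine genes, 1 (Hdc) was at least 2-fold higher on the DSS array, 1 (Hrh1) was 2-fold lower or more, and 2 (Hnmt and Hrh2) lay between. Of all counted genes, 3.99% were higher on the DSS array by that size and 3.03% were lower by it. The genes were chosen from this contrast, so nothing is read from setting these shares side by side. The median difference of the 4 genes was -0.24, and that of all counted genes was -0.03. The 4 values lie far apart, from -1.47 to 4.67, and their median describes none of them.

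Hdc (probe set 10487238) read 10.85 on the DSS array and 6.18 on the control array. The difference of 4.67 is a 25.4-fold higher signal in DSS, the largest among the 5 genes and number 18 from the top among the 11163 counted genes. The control signal lay 0.48 above that array's median, so the fold starts from a dim signal, while the DSS signal lay 5.23 above its array's median. RMA compresses differences that start from dim signals.

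Slc18a2 (probe set 10464370), the transporter that loads histamine and other amines into vesicles, read 4.64 on the DSS array and 4.70 on the control array. Both signals were below the median of their array, by 0.97 in DSS and 1.01 in control. The table holds no detection calls, so whether the gene was detected is not known. Slc18a2 thus had only a dim signal on both arrays. Its difference of -0.05 changed sign when the arrays were centred by loess, so no direction is given. Slc18a1, which encodes the related transporter of endocrine cells, read 4.54 on the DSS array and 4.61 on the control array, also below both medians.

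Hnmt (probe set 10480459) read 5.91 on the DSS array and 6.89 on the control array. The DSS signal was 1.97-fold lower, a difference of -0.98 that missed the 2-fold size by 0.02 on the log2 scale. Hnmt was number 353 from the bottom of the 11163 counted genes. Its DSS signal was dim, 0.29 above the array median. The genes of synthesis and methylation therefore differed in opposite directions, and the Hdc difference exceeded that of Hnmt by 5.65 on the log2 scale.

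**Figure D1:**
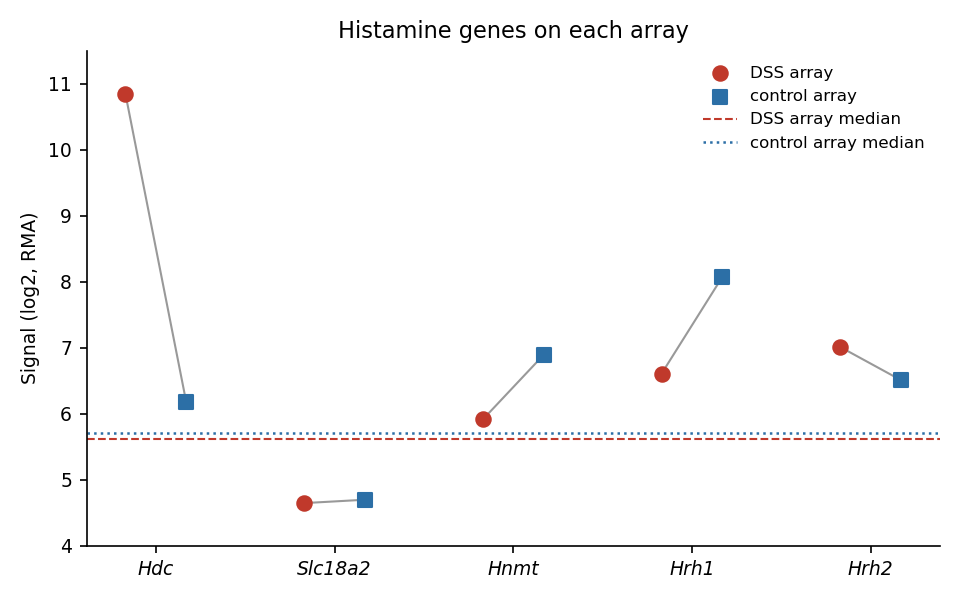
Log2 signal of each histamine gene on the DSS array (circles, left) and the control array (squares, right), 1 array each, with grey lines joining the arrays and horizontal lines at the array medians of 5.62 (DSS) and 5.70 (control). Hdc stands at 10.85 in DSS and 6.18 in control, Hrh1 at 6.61 in DSS and 8.07 in control, and both Slc18a2 signals lie under the medians.

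The receptors differed in opposite directions, with the larger difference in Hrh1. Hrh1 (probe set 10540855) read 6.61 on the DSS array and 8.07 on the control array. This is a 2.76-fold lower signal in DSS (difference -1.47), number 152 from the bottom of the counted genes, with signals above the median of both arrays. Hrh2 (probe set 10405248) read 7.01 on the DSS array and 6.51 on the control array, a 1.42-fold higher signal in DSS (difference 0.50), number 1376 from the top. The Hrh2 difference is under the 2-fold size and lies beside a robust SD of 0.39 among all counted genes. It exceeded the Hrh1 difference by 1.97 on the log2 scale, a 3.91-fold shift between the receptors.

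The receptors H3 and H4, which act through Gi proteins, had signals below both medians. Hrh3, best known as a presynaptic receptor of neurons, read 4.74 on the DSS array and 4.93 on the control array. Hrh4, a receptor of leukocytes, read 3.90 on the DSS array and 3.98 on the control array. Among the 4 histamine receptor genes, Hrh1 and Hrh2 were thus the ones with signals above the array medians.

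The further genes of histamine and histidine handling were a list of 18, of which 16 had a probe set assigned to that gene alone. Of these, 14 were below the median of both arrays and 2 were counted, beside 11163 counted among all 19938 genes. By 2-fold or more, 0 of the 2 were higher and 1 was lower. The lower gene was Maoa, a mitochondrial monoamine oxidase, at 6.39 on the DSS array and 8.15 on the control array (3.37-fold lower). Maob, the form best known for oxidising methylhistamine, read 4.06 on the DSS array and 4.22 on the control array. Aoc1, the secreted diamine oxidase that degrades extracellular histamine, read 4.56 on the DSS array and 4.40 on the control array. Of the methylating and oxidising enzymes, Hnmt and Maoa had signals above the medians, and both were lower on the DSS array.

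**Figure D2:**
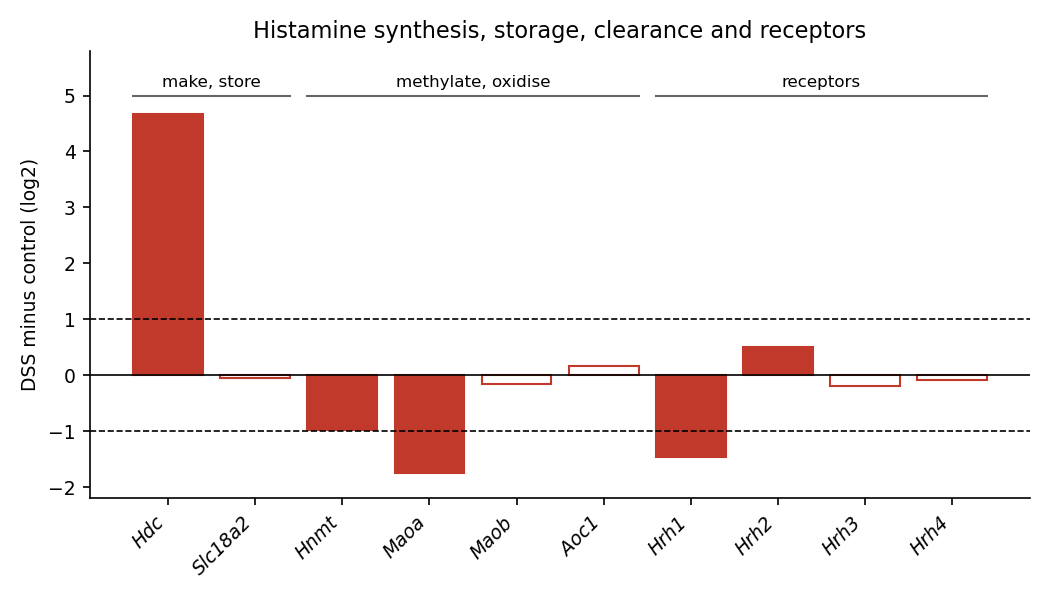
Difference in log2 signal, DSS minus control, for genes that make and store histamine, methylate and oxidise amines, and sense histamine, 1 array per group. Filled bars passed the signal rule, open bars were below the median of both arrays, and dashed lines mark 2-fold: Hdc (4.67) stands above the upper line, Maoa (-1.75) and Hrh1 (-1.47) below the lower one, and Hnmt (-0.98) ends just inside it.

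Other decarboxylases were set beside Hdc. Odc1, the ornithine decarboxylase that starts polyamine synthesis and the other counted gene of that list, read 11.26 on the DSS array and 11.12 on the control array. Ddc, the aromatic amino acid decarboxylase related to Hdc, read 5.33 on the DSS array and 5.22 on the control array. Gad1, which makes GABA, read 4.48 on the DSS array and 4.45 on the control array. The differences of these 3 genes, 0.14, 0.11 and 0.02, were small beside the 4.67 of Hdc, but Ddc and Gad1 were below both medians. The histidine breakdown genes Hal, Uroc1, Amdhd1 and Ftcd had differences of 0.00, -0.41, -0.07 and -0.18, all with signals below both medians. The amine carriers Slc22a2, Slc29a4 and Slc6a4 had differences of -0.16, -0.18 and -0.21, also below both medians.

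Hdc is known to be induced by haematopoietic growth factors and by interleukins of the IL-1 family, so the receptors of these signals were listed with Tlr4, the receptor for bacterial lipopolysaccharide. Of the 11 genes, 9 were measured, and all 9 were counted. Il1r1 and Il1rl1 had no probe set assigned to that gene alone and so have no value here. On the DSS array 3 were at least 2-fold higher and 0 lower by that size, beside 3.99% higher and 3.03% lower among all counted genes. Their median difference was 0.75, beside -0.03 for all counted genes and 4.67 for Hdc. The list was chosen with earlier results of these data known, so nothing is read from these shares. Il18rap, a subunit of the IL-18 receptor, read 7.98 on the DSS array and 5.23 on the control array. This is 6.72-fold higher, from a control signal below the median. Il1rap, the shared accessory chain of IL-1 family receptors, read 8.45 on the DSS array and 5.70 on the control array. Csf3r, the G-CSF receptor, read 9.25 on the DSS array and 7.08 on the control array, and it also belongs to the neutrophil list given below. Il3ra had a difference of -0.20 and Tlr4 one of -0.12. Chosen after their values were seen, the GM-CSF receptor genes Csf2ra, Csf2rb and Csf2rb2 had differences of 0.11, 0.85 and 0.49. The last 2 are close copies whose probes may not separate them. Il18r1, also chosen after its values were seen, had a difference of 0.75 from a control signal of 5.13, below the median.

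**Figure D3:**
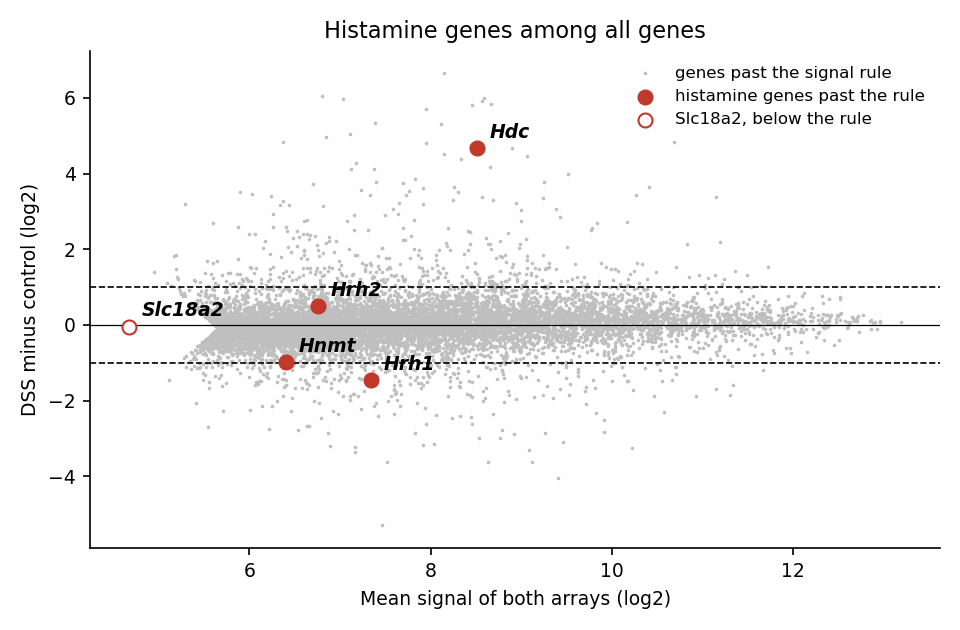
Difference in log2 signal (DSS minus control) against the mean log2 signal of both arrays for the 11163 counted genes (grey) and the histamine genes (red; Slc18a2 open, as it did not pass the signal rule). Dashed lines mark 2-fold: Hdc lies at 4.67 with few genes above it, Hrh1 at -1.47, and Hnmt sits close to the lower line.

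Markers of mast cells and basophils, the classical makers of histamine, were examined beside Hdc. Of 15 mast cell markers 14 were measured, and 12 of these were below the median of both arrays. For scale, 11163 of all 19938 genes were counted, and the others were likewise below both medians. Among the 12 were the protease genes Cpa3, Mcpt1, Mcpt2 and Mcpt4, the tryptase gene Tpsb2, the chymase gene Cma1 and the IgE receptor genes Fcer1a and Ms4a2. Cpa3 read 5.26 on the DSS array and 4.94 on the control array. The summed signal of the 14 markers, on the linear scale, was 430 on the DSS array and 372 on the control array. The counted markers were Kit, the stem cell factor receptor, at 6.71 on the DSS array and 5.75 on the control array, and the transcription factor gene Gata2, with a difference of -0.13. Of 7 basophil markers 6 were below both medians, with a summed signal of 213 on the DSS array and 214 on the control array. The basophil protease gene Mcpt8 read 4.96 on the DSS array and 4.24 on the control array. Apart from Kit and Gata2, the measured mast cell and basophil markers were below the medians of both arrays, which are not detection limits. The part of mast cells and basophils in the Hdc difference was not tested.

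Most neutrophil and monocyte markers were higher on the DSS array. Of 18 neutrophil markers 16 were counted. Of these, 13 were at least 2-fold higher on the DSS array and 0 lower by that size, with a median difference of 3.41. Among all counted genes 3.99% were higher and 3.03% lower by that size. On the control array 10 of the 18 markers were below the median, so some, such as Ly6g, were counted only through the DSS array. The marker lists were chosen with earlier results of these data known, so nothing is read from these counts. Ly6g, a surface antigen of mouse neutrophils, read 10.01 on the DSS array and 4.04 on the control array. The alarmin gene S100a8 read 13.10 on the DSS array and 8.27 on the control array. The summed neutrophil signal was 34226 on the DSS array and 2301 on the control array, a sum that weights the brightest probe sets, such as S100a8, most and is no measure of the share of these cells. The primary granule genes Mpo and Prtn3 had differences of 0.29 and 0.25, and Elane was below both medians. All 8 measured monocyte markers were counted, of which 7 were higher on the DSS array by that size and 1 (F13a1) was lower. The median difference of the 8 was 3.74, and 1 of them (Chil3) was counted only through the DSS array. The summed signal of the monocyte markers was 18443 on the DSS array and 4616 on the control array. The sort kept IAb+ and F4/80+ cells, and neutrophils lack F4/80, but no measure of the purity of the sort was used here. The part of neutrophils and monocytes in the Hdc difference was not tested. In bulk RNA a change in the number of cells of a type and a change in RNA per cell cannot be told apart.

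Resident macrophage markers were lower on the DSS array. All 13 measured markers were counted, with 0 higher and 6 lower by 2-fold or more. Among all counted genes 3.99% were higher and 3.03% lower by that size. The median of the markers was -0.99, beside -1.47 for Hrh1 and -0.98 for Hnmt. This list too was chosen with earlier results of these data known, so nothing is read from these counts. Vsig4, a complement receptor of tissue macrophages, read 4.82 on the DSS array and 10.11 on the control array, and Mertk, a receptor for apoptotic cell uptake, had the smallest difference at -0.42. The summed signal of these markers was 13904 on the DSS array and 29273 on the control array, while the differences of single markers ranged from -5.29 to -0.42. The part of the resident cells in the Hrh1 and Hnmt differences was not tested. The antigens kept by the sort were above the medians on both arrays: Ptprc (CD45), H2-Ab1 (IAb), Itgam (CD11b) and Adgre1 (F4/80) had differences of 0.40, 0.14, 0.60 and -0.82. Itgae (CD103), the antigen sorted against, was below both medians.

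Other cell types that can hold histamine genes or amine transporters had no measured marker higher by 2-fold on the DSS array. Of 9 enteroendocrine markers 7 were below both medians, with summed signals of 257 on the DSS array and 279 on the control array. Among all 19938 genes 11163 were counted, the others being below both medians. The 6 measured eosinophil markers had differences of -0.24 to 0.00 and summed signals of 393 on the DSS array and 424 on the control array. Platelets carry Slc18a2, and 2 of 7 measured platelet markers, the chemokine genes Pf4 and Ppbp, were lower by 2-fold or more, with differences of -1.57 and -1.63. These chemokine genes carry most of the summed platelet signal of 1933 on the DSS array and 5318 on the control array. The other 5 measured platelet markers had differences of -0.39 (Treml1) to 0.23 (Itgb3), and Itga2b, the platelet fibrinogen receptor chain, was below both medians, as was Slc18a2.

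**Figure D4:**
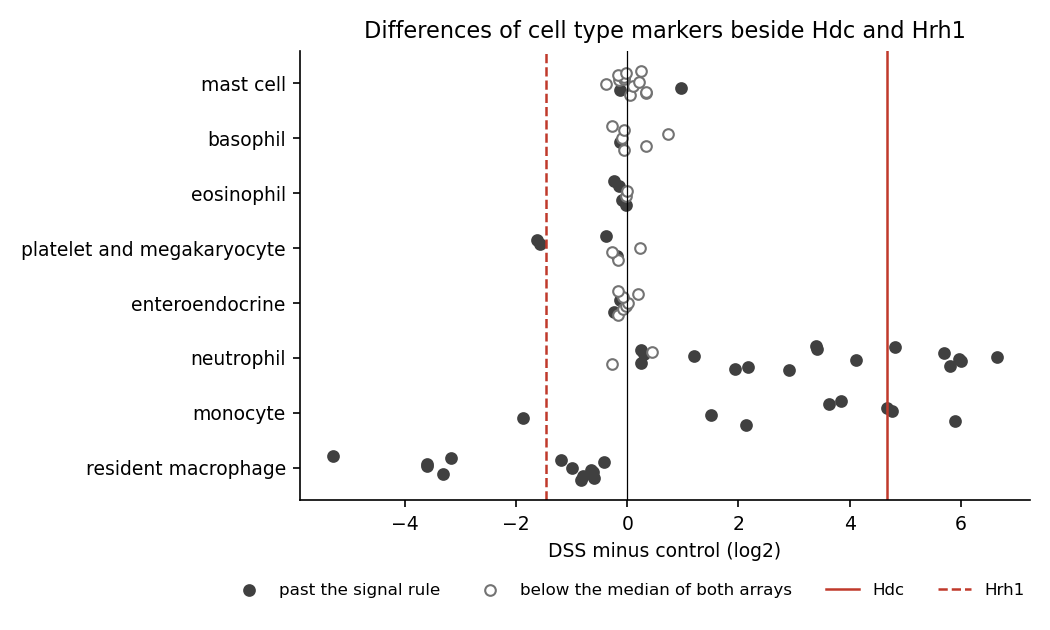
Difference in log2 signal (DSS minus control) for each measured marker of 8 cell types, with filled points past the signal rule and open points below the median of both arrays, 1 array per group. The red lines mark Hdc at 4.67 and Hrh1 at -1.47: Hdc lies within the range of neutrophil and monocyte markers, and mast cell and basophil markers lie nearer to 0.

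The genes nearest to each histamine gene were taken as those with the smallest distance over the log2 signals of both arrays, without predicted genes. Nearest to Hdc were Trem1, an activating receptor of myeloid cells (difference 4.61, distance 0.10), Hp, which encodes haptoglobin (4.76, distance 0.12), and Mcemp1 (4.17, distance 0.41). Nearest to Hrh1 were the transcription factor gene Nfic (-1.41), the fatty acid desaturase gene Fads1 (-1.45) and Cd55 (-1.56), a regulator of complement. Those nearest to Hnmt were Fv1, Rgs9 and Plekhg5, with differences of -0.95, -1.04 and -1.01, and those nearest to Hrh2 were Lzic, Gnl3l and Coro2a, with 0.50, 0.49 and 0.54. Nearest to Slc18a2 were Zkscan4, Cacna1f and Unc5b, with differences of -0.05, -0.06 and -0.04. The last of the 3 neighbours lay at 0.41 for Hdc and at 0.01 to 0.08 for the others. Hdc was number 18 from the top, where few genes lie, so its larger distance follows from that position. Signals of different probe sets are not on a common scale, and over 2 arrays such likeness describes position only.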

How the data were processed

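RNA of sorted colonic macrophages, 100 ng per array, was labelled with biotin and hybridised by the Affymetrix procedure, per the labels' protocols. The deposited table by the authors holds log2 signals of 35556 probe sets on 2 arrays. RMA (background correction, quantile normalisation and summary of probes) is named in the submitters' processing notes without version or settings. RMA compresses dim differences, and its quantile step removes a global shift. The sources used here give no genome build. The number of arrays limits the precision.

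Log2 values were used as deposited. Genes were named from the platform annotation (21789 probe sets with 1 symbol, 1621 with several, 12146 with no listed gene). By Entrez identifier 21698 probe sets matched RefSeq (GRCm38.p6) and 91 did not, with 0 symbols updated. A gene took its probe set of highest mean signal. Array medians left out probe sets with identifiers below the lowest annotated one. With 1 array per group there was no test and no p-value, and genes were counted at 2-fold.

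The members and the 17 gene lists were chosen with earlier results of these data known. The genes named were all 5 members, the further histamine pathway genes, the list members furthest in each direction, defining markers and the 3 genes nearest to each member. Genes outside this rule are given as chosen after their values were seen. Steps were tested on simulated data. There, 99.0% of raised and 99.0% of lowered genes were recovered among 11317 genes at a log2 size of 2. The simulated noise was equal at all signal levels, and the changed genes were at or above the control median. The simulation therefore checks the counting steps and not how dim signals behave. Alternatives covered scaling (median centring, loess with span 0.4), a mean over probe sets, other signal rules (no rule, or the median reached on both arrays), a floor set at the 25th percentile of values and sizes of 1.5-fold and 3-fold. Python 3.11.15, numpy 2.4.6, pandas 2.3.3, statsmodels 0.14.6 and matplotlib 3.10.9 were used.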

Additional observations from a re-analysis of the deposited data

How the results depend on the processing

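No paired analysis was possible because each group had 1 array and the result comes from no test. With a size of 1.5-fold, 2 histamine genes (Hnmt joining Hrh1) counted as lower on the DSS array, and with 3-fold 0 did, which follows from the sizes. The count of 1 higher gene (Hdc) was the same under all 8 alternatives. Under both centrings, the mean over probe sets and the floor, the difference of Hdc ranged from 4.61 to 4.71, Hrh1 from -1.47 to -1.42, Hnmt from -0.98 to -0.88 and Hrh2 from 0.50 to 0.58. That of Slc18a2 ranged from -0.05 to 0.03. Without the signal rule, 2.25% of all genes were at least 2-fold higher and 1.72% lower, since dim genes entered, and the histamine median was -0.05. Median centring removed a shift of -0.05. Kit passed 2-fold under both centrings, so 1 mast cell marker then counted as higher. Of the medians of the other 17 lists, 3 moved by more than the pooled SD between probe sets, all without the signal rule: the further histamine pathway genes to -0.12 (-0.81 with the rule), mast cell markers to 0.01 (0.42) and platelet markers to -0.27 (-0.98). Under both centrings 0 of the 17 did. Dim signals limit Slc18a2, the control value of Hdc and the DSS value of Hnmt.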

Other observations

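Genes of the pathways through which the histamine receptors signal were examined next. In the Gq arm of the H1 receptor, 11 of 13 measured genes were counted, 1 was at least 2-fold higher on the DSS array and 0 were lower by that size, with a median of -0.22. Gna11, a Gq family alpha subunit, read 6.11 on the DSS array and 7.11 on the control array, and Prkca, a calcium-dependent protein kinase C, read 5.68 on the DSS array and 6.59 on the control array. The higher gene was Plcb1, a phospholipase C that Gq proteins activate, at 7.26 on the DSS array and 4.87 on the control array (5.24-fold, from a control signal below the median). For the Gs and cyclic AMP arm of the H2 receptor, Gnas, the gene of the Gs alpha subunit, had no probe set assigned to it alone. The same held for Prkaca and Rapgef4. In this arm 12 of 21 measured genes were counted, 0 were higher and 1 was lower by 2-fold or more, with a median of -0.16. The lower gene, the adenylyl cyclase gene Adcy3, read 5.13 on the DSS array and 6.18 on the control array, with the DSS signal under the median. Adcy7, a cyclase of leukocytes, read 7.53 on the DSS array and 8.42 on the control array, and the protein kinase A catalytic subunit gene Prkacb read 8.42 on the DSS array and 9.38 on the control array. Pde4b, a phosphodiesterase that degrades cyclic AMP, lay furthest the other way at 9.43 on the DSS array and 8.82 on the control array. Of the kinases and arrestins that desensitise such receptors, 5 of 6 measured were counted and 0 were 2-fold apart, with a median of 0.05, Grk5 at 0.87 and Arrb1 at -0.38.

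Receptors of other amines were mostly below the medians. Of 32 adrenergic, dopamine, serotonin, muscarinic and trace amine receptor genes, 25 were measured and 21 of these were below the median of both arrays. For scale, 11163 of all 19938 genes were counted. Of the 4 receptor genes counted, 1 was at least 2-fold higher on the DSS array and 0 were lower by that size. The higher gene was Htr7, a Gs-coupled serotonin receptor, at 7.77 on the DSS array and 5.28 on the control array (5.60-fold, from a control signal below the median). Htr2b, a Gq-coupled serotonin receptor, read 5.75 on the DSS array and 5.41 on the control array, and Chrm1 and Chrm4, muscarinic receptors, had differences of -0.06 and -0.14.

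Genes that supply the cofactors of Hdc and Hnmt lay within 2-fold. Of 7 measured genes 5 were counted, with a median of -0.01. Pdxk, the kinase that forms pyridoxal phosphate, read 7.07 on the DSS array and 7.45 on the control array, and Mat2b, a regulatory subunit of S-adenosylmethionine synthesis, read 8.30 on the DSS array and 7.89 on the control array. Among small-molecule methyltransferases 2 of 5 measured were counted and 0 were 2-fold apart. Tpmt, which methylates thiopurines, read 6.22 on the DSS array and 6.88 on the control array, a difference of -0.66 beside -0.98 for Hnmt, and Nnmt had a difference of 0.14.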
